A study of Mustela putorius furo with 9 samples.

Results

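The genes described here encode the core proteins of the epithelial adherens and tight junctions, with EPCAM and the desmosome linker desmoplakin beside them. The 9 genes are CDH1, CTNNB1, CTNNA1, CTNND1, TJP1, OCLN, F11R, EPCAM and DSP, and all 9 were found by symbol among the 28494 genes of the deposited table. Their levels were compared across 9 RNA sequencing libraries of NBL-7 cells, a line that the labels call a lung epithelial line of the ferret, while a mink lung epithelial line goes by the same name. All cells were grown in DMEM with serum, and the study's title names exposure to particulate matter. The 3 libraries titled Ep1 carry the treatment label untreated, the 3 titled Ep2 the label 250 µg/mL, and the 3 titled PBS1 the label 500 µg/mL, here called PBS. PBS commonly names a buffer, so title and label of that group differ in kind, and every pair of groups was compared. Its 3 columns carry the names PBS1, PBS2 and PBS3, used here. The length of exposure is not given in the sources used here. The labels do not state that replicates were separate cultures, so the spread behind the p-values may be technical.

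In an adherens junction, E-cadherin molecules of neighbouring cells bind each other outside the membrane, while the cadherin tail holds β-catenin and p120-catenin, and α-catenin couples the complex to actin. In a tight junction, claudins, occludin and the junctional adhesion molecules seal the gap between cells and are held by zonula occludens scaffolds. In the airway these belts form the barrier between inhaled material and the tissue below, and desmosomes tie neighbouring cells together through their keratin filaments.

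The libraries held 12469849 to 13533480 fragments, a depth derived from the deposited FPKM. FPKM scales fragments to gene length and to library size, and 1 fragment on a kilobase of gene was worth between 0.0739 and 0.0802 FPKM. On the first principal component, with 57.1% of the variance, Ep1_1 lay at -14.7, next to the PBS libraries at -19.3 to -15.3 and away from Ep1_2 and Ep1_3 at -0.37 and 2.89. The Ep2 libraries lay between 15.3 and 24.7. Of 12 listed epithelial markers outside the junctions, the keratin genes KRT7, KRT8 and KRT19 were high, with summed marker levels of 1136 to 1518 FPKM in Ep1, 1062 to 1237 FPKM in Ep2 and 1355 to 1585 FPKM in PBS. The other 9 stayed under 1 FPKM in every library, and RAB25 and MAL2 were among those listed at 0. Fibroblast markers summed to 3.51 to 5.66 FPKM over all libraries, leukocyte markers to 1.46 to 2.99 FPKM, and endothelial markers, almost wholly TEK, to 12.2 to 17.9 FPKM.

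The 9 genes fell into 6 that were clearly expressed and 3 that were at or near 0 in all libraries. The β-catenin gene CTNNB1, the α-catenin gene CTNNA1 and the ZO-1 gene TJP1 were at 85.4 FPKM or more in every library, the p120-catenin gene CTNND1 and the JAM-A gene F11R between 21.4 and 36.05 FPKM, and the occludin gene OCLN between 7.84 and 10.7 FPKM. E-cadherin, EPCAM and desmoplakin did not reach 1 FPKM in any library and were not tested. Among the 11840 tested genes, CTNNB1 stood at the 96.1 percentile of mean FPKM, TJP1 at 92.8, CTNNA1 at 92.6, F11R at 74.9, CTNND1 at 71.3 and OCLN at 42.0.

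**Figure D1:**
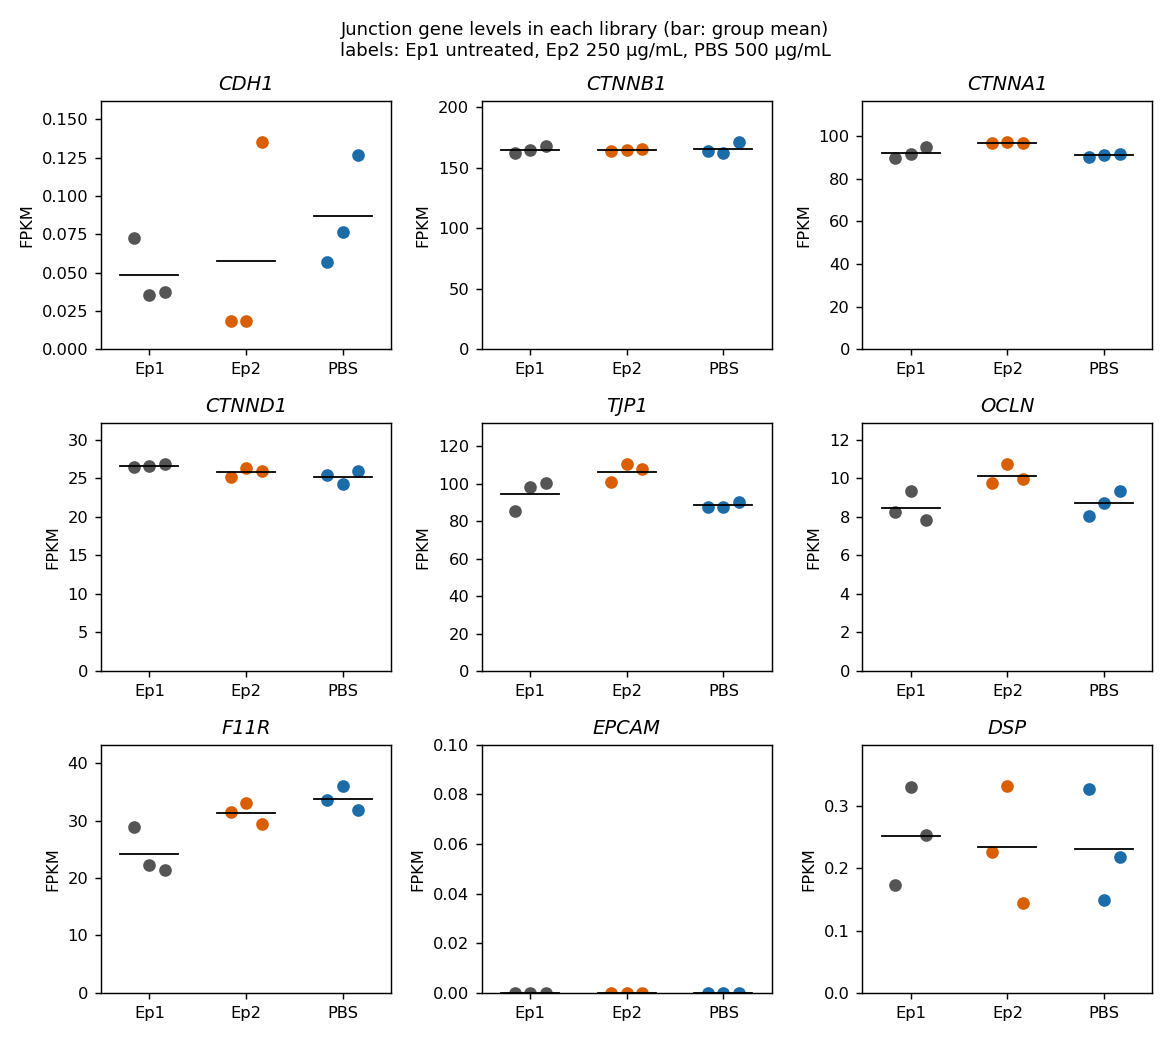
Level of each of the 9 junction genes in each library, with FPKM on the vertical axis from 0, the groups Ep1, Ep2 and PBS side by side, points for libraries and bars for group means. CTNNB1 lay between 162 and 171 FPKM throughout, F11R was lowest in Ep1_2 and Ep1_3, and CDH1, EPCAM and DSP had no library above 1 FPKM.

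E-cadherin, the CDH1 product, is the adhesion receptor that defines epithelial adherens junctions. CDH1 measured 0.0727, 0.0356 and 0.0371 FPKM in Ep1_1, Ep1_2 and Ep1_3, on 4, 2 and 2 fragments. It measured 0.0183, 0.0187 and 0.135 FPKM in Ep2_1, Ep2_2 and Ep2_3, on 1, 1 and 7 fragments, and 0.0567, 0.0763 and 0.127 FPKM in columns PBS1, PBS2 and PBS3, on 3, 4 and 7 fragments. The groups overlapped, and no library stood above a few fragments. Pooled over a group, the level was 0.0485 FPKM in Ep1 (exact Poisson 95% interval 0.0209 to 0.0955), 0.0563 FPKM in Ep2 (0.0257 to 0.107) and 0.0872 FPKM in PBS (0.0477 to 0.146). These intervals cover counting error only, not the spread between libraries, and they overlap between all groups. Such overlap is not a test of a difference, and on so few fragments a difference could be missed. Tested without a minimum level, CDH1 gave a log2 difference of 0.01 for Ep2 minus Ep1, 0.05 for PBS minus Ep1 and 0.04 for PBS minus Ep2, with adjusted p of 0.935, 0.629 and 0.585.

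EPCAM, a cell surface adhesion protein of most simple epithelia, was listed at 0 in all 9 libraries. DSP, whose product desmoplakin ties desmosomal plaques to keratin filaments, measured 0.173, 0.331 and 0.253 FPKM in Ep1_1, Ep1_2 and Ep1_3, 0.227, 0.333 and 0.144 FPKM in Ep2_1, Ep2_2 and Ep2_3, and 0.328, 0.150 and 0.218 FPKM in columns PBS1, PBS2 and PBS3. Each group thus held a low and a high library, on 18 to 45 fragments each, and the groups overlapped. Its adjusted p without a minimum level was 0.906, 0.917 and 1 for Ep2 minus Ep1, PBS minus Ep1 and PBS minus Ep2. The table also lists KRT18, the usual filament partner of KRT8, at no more than 0.0458 FPKM, although KRT8 measured 131 to 200 FPKM. Genes at or near 0 are therefore reported as listed there, and their absence from the cells was not tested. In bulk RNA, fewer cells expressing a gene and less of its RNA in each cell cannot be told apart.

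With CDH1 listed near 0, nearly all FPKM summed over 8 listed cadherin genes came from the others. N-cadherin, CDH2, known from mesenchymal and neural cells, measured 62.3, 67.4 and 61.7 FPKM in the Ep1 libraries, 69.7, 79.6 and 79.1 FPKM in the Ep2 libraries and 55.2, 53.0 and 55.1 FPKM in the PBS columns. The 3 groups did not overlap. Of all tested genes, 42.8% did not overlap between Ep2 and Ep1, 23.7% between PBS and Ep1 and 60.3% between PBS and Ep2. CDH2 rose in Ep2 against Ep1 by 0.25 on the log2(FPKM + 1) scale (adjusted p = 0.0182, and 0.0723 without Ep2_2 or 0.0762 without Ep2_3) and fell in PBS against Ep2 by 0.47 (adjusted p = 0.000494). For PBS minus Ep1 the difference was -0.22 and was not called (adjusted p = 0.107, and 0.0451 without Ep1_1). CDH2 held 62.3% to 74.0% of the FPKM summed over 8 classical and related cadherin genes, CDH11 19.8% to 31.6%, CDH6 5.16% to 9.54% and CDH1 0.0173% to 0.154%. The 3 leading cadherins thus made up nearly all of this sum in every library, and cadherin genes outside these 8 were not summed.

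**Figure D2:**
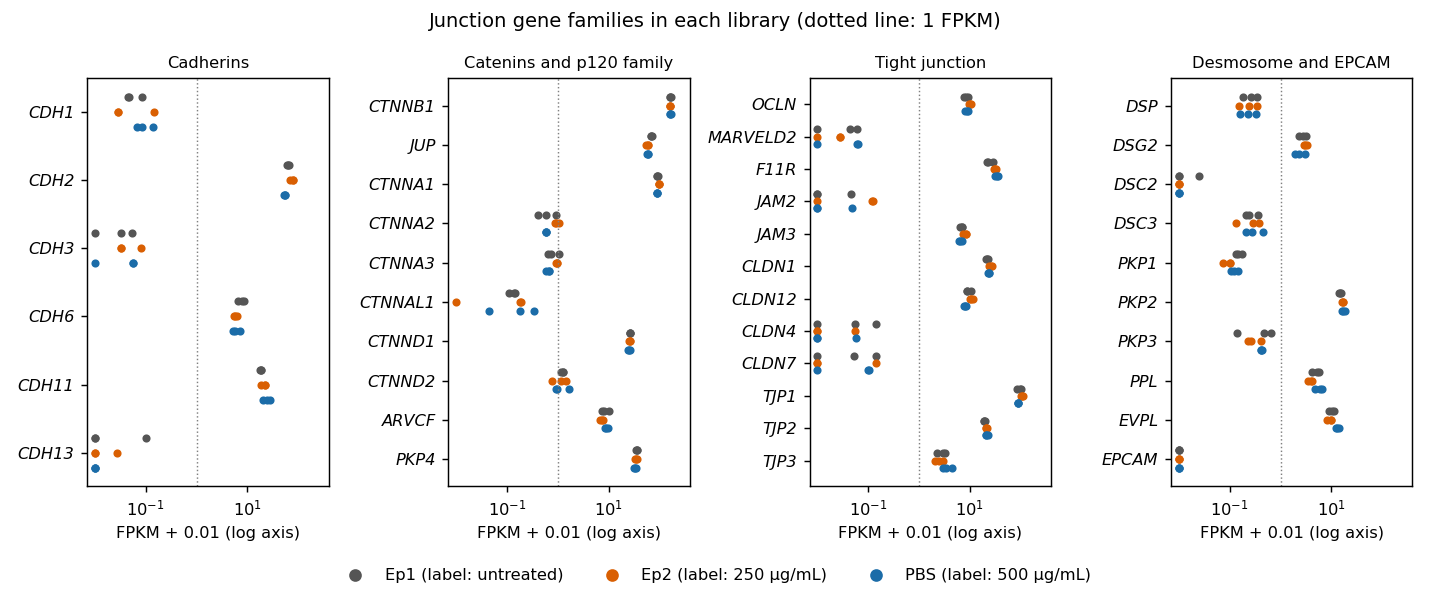
Levels of junction gene families in each library, as FPKM plus 0.01 on a log axis, with 1 row per gene, colours for the 3 groups and a dotted line at 1 FPKM. CDH1, DSP and EPCAM lay left of the line in all libraries, while CDH2, CTNNB1, CTNNA1, TJP1 and PKP2 lay to its right.

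The catenins were the steadiest of the expressed genes. CTNNB1, whose product β-catenin both binds cadherin tails and acts as a coactivator in Wnt signalling, measured 162, 165 and 168 FPKM in Ep1_1, Ep1_2 and Ep1_3, 164, 165 and 166 FPKM in the Ep2 libraries and 164, 162 and 171 FPKM in the PBS columns. All groups overlapped, and the means were 165 ± 2.83 FPKM in Ep1, 165 ± 1.21 FPKM in Ep2 and 166 ± 4.77 FPKM in PBS (SD, n = 3 each). The log2 difference for Ep2 minus Ep1 was -0.00012, with a 95% interval of -0.10 to 0.10, and those for PBS minus Ep1 and PBS minus Ep2 had intervals of -0.09 to 0.11. The counts behind these levels were 7583 to 8400 fragments per library.

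CTNNA1, whose product α-catenin links the cadherin complex to actin filaments, measured 89.9, 91.8 and 95.1 FPKM in Ep1_1, Ep1_2 and Ep1_3, 97.0, 97.2 and 96.9 FPKM in the Ep2 libraries and 90.5, 91.2 and 91.6 FPKM in the PBS columns. The Ep2 libraries lay above all others, but the difference was small and not called, at 0.07 for Ep2 minus Ep1 (95% interval -0.03 to 0.17, adjusted p = 0.264) and -0.09 for PBS minus Ep2 (-0.19 to 0.01, adjusted p = 0.124). Under quantile normalization the PBS minus Ep2 difference was -0.185 and passed (adjusted p = 0.0152), as did the F-test (0.0414). CTNND1, whose product p120-catenin holds cadherins at the membrane, measured 26.5, 26.6 and 26.8 FPKM in the Ep1 libraries, 25.1, 26.3 and 25.9 FPKM in the Ep2 libraries, and 25.4, 24.2 and 26.0 FPKM in the PBS columns. All 3 Ep1 libraries lay above the other 6 by a small margin, with log2 differences of -0.04 for Ep2 minus Ep1 and -0.08 for PBS minus Ep1 and adjusted p of 0.566 and 0.414. Between libraries of a group, CTNNA1 and CTNND1 varied little more than fragment counting alone gives, with chi-squares of 1.33 and 1.22 per degree of freedom.

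CTNNA1 held 97.8% to 98.8% of the α-catenin family's FPKM and CTNNB1 69.8% to 75.4% of the sum with its relative JUP, whose product plakoglobin serves both adherens junctions and desmosomes. CTNND1 shared its family with PKP4, which held 47.5% to 52.0% against 36.2% to 38.2% for CTNND1. JUP differed where CTNNB1 did not pass: it fell to 58.0 ± 3.37 FPKM in Ep2, while Ep1 held 68.8 ± 1.48 FPKM, and the log2 difference was -0.24 (SE 0.06, adjusted p = 0.0134, and 0.0623 without Ep2_3). In PBS it measured 58.7 ± 1.94 FPKM, and its difference from Ep1, of -0.23, was not called (adjusted p = 0.0931, and 0.0429 without Ep1_1).

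F11R, whose product JAM-A is an immunoglobulin-like adhesion molecule of tight junctions, gave the largest difference among the 6 tested genes. It measured 29.0, 22.4 and 21.4 FPKM in Ep1_1, Ep1_2 and Ep1_3. The Ep2_1, Ep2_2 and Ep2_3 libraries gave 31.6, 33.1 and 29.4 FPKM. In columns PBS1, PBS2 and PBS3 it measured 33.6, 36.05 and 31.8 FPKM. Every Ep2 and PBS library lay above every Ep1 library, and Ep1_1 was the Ep1 library closest to them. F11R rose in Ep2 against Ep1 by 0.37 (SE 0.10, 95% interval 0.14 to 0.60, adjusted p = 0.0238), a fold of 1.29. For PBS minus Ep1 the log2 difference was 0.48 (SE 0.10, 95% interval 0.25 to 0.70), which did not pass over all genes (adjusted p = 0.0707). For PBS minus Ep2 it was 0.11 (95% interval -0.12 to 0.33, adjusted p = 0.413).

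The F11R calls depended on single libraries. Without Ep1_1, the Ep1 library next to PBS on the first component, the PBS minus Ep1 difference was 0.61 and passed (adjusted p = 0.00279). The Ep2 minus Ep1 call was lost without Ep1_2 (adjusted p = 0.0711), Ep1_3 (0.0629), Ep2_2 (0.0830) or Ep2_3 (0.0503), while the difference itself ran from 0.29 to 0.50 over the 9 fits that left out 1 library. F11R held 75.5% to 84.0% of the FPKM of the 3 JAM genes. JAM3 made up most of the rest, with means of 6.84 FPKM in Ep1, 8.03 FPKM in Ep2 and 6.47 FPKM in PBS.

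TJP1 encodes ZO-1, the scaffold that holds claudins and occludin to actin. It measured 85.4, 98.0 and 100.3 FPKM in Ep1_1, Ep1_2 and Ep1_3. The Ep2_1, Ep2_2 and Ep2_3 libraries gave 100.6, 110.4 and 107.6 FPKM. In columns PBS1, PBS2 and PBS3 it measured 87.5, 87.2 and 90.2 FPKM. The PBS columns were close together and below every Ep2 library, and Ep1_1 again lay with PBS while Ep1_2 and Ep1_3 lay near Ep2_1. TJP1 fell in PBS against Ep2 by 0.26 on the log2 scale (SE 0.07, 95% interval -0.41 to -0.11, adjusted p = 0.0086), a fold of 0.834. This call held with any 1 library left out, with adjusted p between 0.00155 and 0.0363. For Ep2 minus Ep1 the difference was 0.17 (0.02 to 0.32) and was not called (adjusted p = 0.0829, and 0.0492 without Ep1_3), and for PBS minus Ep1 it was -0.09 (adjusted p = 0.422). Within groups, TJP1 had the largest chi-square per degree of freedom relative to counting, at 28.8, followed by F11R with 14.3. At a given relative spread this measure grows with the fragment count, so it does not rank genes by relative spread. The counts were 7577 to 9775 fragments per library for TJP1 and 959 to 1576 for F11R. TJP1 held 76.3% to 82.3% of the FPKM of the 3 zonula occludens genes.

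OCLN encodes occludin, a membrane protein of the tight junction strand. It measured 8.24, 9.34 and 7.84 FPKM in Ep1_1, Ep1_2 and Ep1_3, 9.74, 10.7 and 9.94 FPKM in the Ep2 libraries, and 8.06, 8.71 and 9.31 FPKM in the PBS columns. The Ep2 libraries lay above all 6 others, and Ep1 and PBS overlapped. The log2 difference was 0.24 for Ep2 minus Ep1 (SE 0.08, 95% interval 0.06 to 0.42, adjusted p = 0.0532) and -0.20 for PBS minus Ep2 (SE 0.08, -0.38 to -0.02, adjusted p = 0.0607), both just short of the threshold. The first passed without Ep1_2 (adjusted p = 0.0353) and the second without column PBS3 (0.0479). OCLN held at least 99.3% of the FPKM of the 3 MARVEL family genes, with MARVELD2 and MARVELD3, which encode tricellulin and a relative, near 0. Of 20 listed claudin genes only CLDN1 and CLDN12 were tested, with 65.3% to 74.9% and 24.0% to 32.6% of the claudin FPKM.

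**Figure D3:**
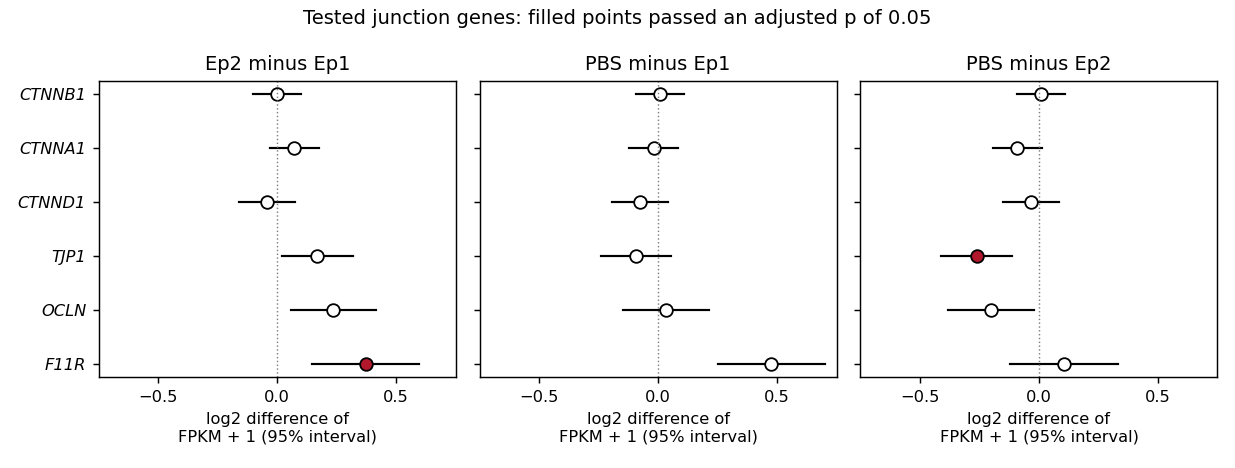
Log2 difference of FPKM + 1 on the horizontal axis for the 6 tested junction genes in the 3 comparisons, with points for estimates, bars for 95% intervals and filled points for an adjusted p under 0.05. F11R at 0.37 for Ep2 minus Ep1 and TJP1 at -0.26 for PBS minus Ep2 were the 2 calls, and the CTNNB1 intervals were centred on 0.

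Across the 6 tested genes, limma called 1 for Ep2 minus Ep1 (F11R, higher in Ep2), where 27.4% of all tested genes passed (13.4% higher in Ep2, 14.0% lower). It called 0 for PBS minus Ep1, where 0.144% of all genes passed (0.076% higher in PBS, 0.0676% lower). In that comparison 1 of the 6 had an unadjusted p under 0.05, as 22.4% of all genes did, and voom on the recovered fragments called 1, F11R in both cases. It called 1 for PBS minus Ep2 (TJP1, lower in PBS), where 49.6% of all genes passed (25.4% higher in PBS, 24.2% lower). The shares of the 6 genes were thus not above those of all genes in the comparisons with Ep2. Groups did not overlap for 5 of the 6 genes between Ep2 and Ep1 (42.8% of all tested genes), for 2 between PBS and Ep1 (23.7%) and for 3 between PBS and Ep2 (60.3%). The median log2 difference of the 6 was 0.12 for Ep2 minus Ep1, -0.0058 for PBS minus Ep1 and -0.06 for PBS minus Ep2, beside -0.0035, 0.0027 and 0.0024 over all genes. The F-test over the 3 groups called F11R (adjusted p = 0.0086) and TJP1 (0.0230) and not OCLN (0.0628), CTNNA1 (0.232), CTNND1 (0.464) or CTNNB1 (0.987), with 45.4% of all genes called. The TJP1 call in the F-test was lost without Ep2_2 (adjusted p = 0.0900), Ep2_3 (0.0803), column PBS1 (0.0605) or column PBS2 (0.0660). The comparisons share libraries in pairs, so their values are given side by side and not as separate evidence.

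**Figure D4:**
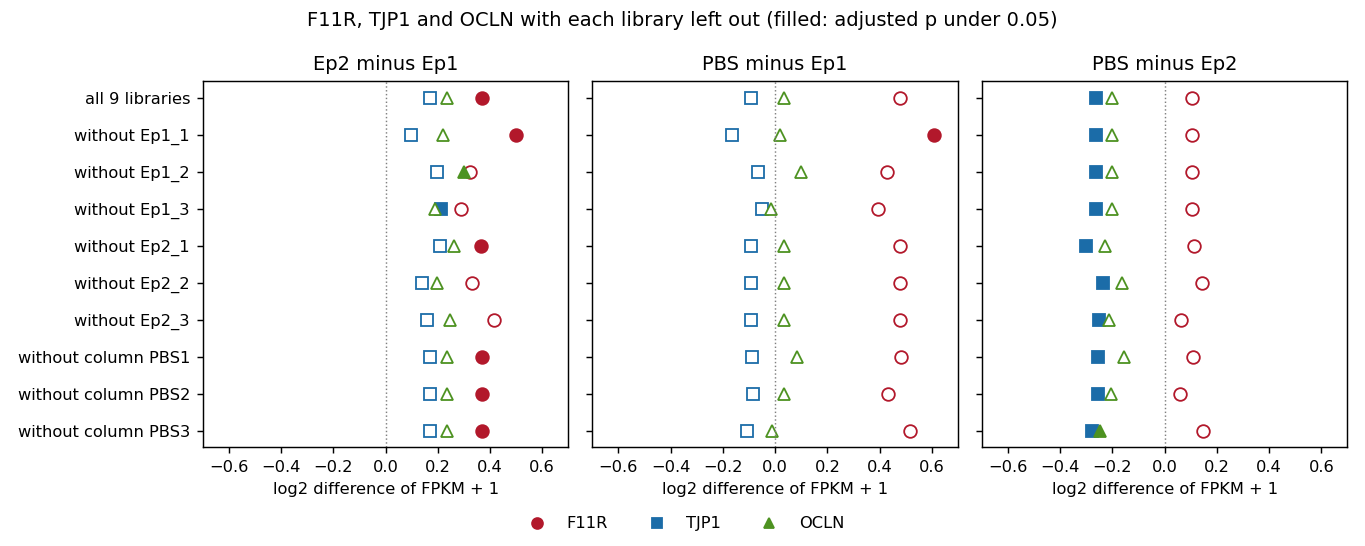
Log2 difference of FPKM + 1 for F11R, TJP1 and OCLN on the horizontal axis, with 1 row for all 9 libraries and 1 for each library left out, and filled symbols for an adjusted p under 0.05. TJP1 stayed filled in every row of PBS minus Ep2, whereas F11R was filled for PBS minus Ep1 only without Ep1_1.

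Some cell type markers were called in the same comparisons, and their part in the junction values was not tested. KRT8 was lower in Ep2 than in Ep1, with a log2 difference of -0.37 (adjusted p = 0.0128, and 0.0573 without Ep2_3) and higher in PBS than in Ep2 by 0.36 (0.00634). KRT19 was higher in PBS than in Ep2 by 0.64 (0.000600). It did not pass for Ep2 minus Ep1 (-0.22, adjusted p = 0.0923, and 0.0185 without Ep1_3) or PBS minus Ep1 (0.42, adjusted p = 0.0714, and 0.00632 without Ep1_1). KRT7, the most abundant of them at means of 872 to 1049 FPKM, passed in no comparison with all 9 libraries (adjusted p = 0.454 for Ep2 minus Ep1, 0.453 for PBS minus Ep1 and 0.06999 for PBS minus Ep2). The last passed without Ep1_1 (0.0367), Ep1_3 (0.0430) or column PBS3 (0.0438). TJP1 and OCLN had differences of the opposite sign to KRT8 in both comparisons. TEK, the tested endothelial marker, was called higher in Ep2 than in Ep1, as F11R was, by 0.26 (adjusted p = 0.0245), a call lost without Ep1_1 (0.0513), Ep1_3 (0.0579), Ep2_2 (0.0891) or Ep2_3 (0.0940). Its PBS minus Ep1 difference was 0.38 (adjusted p = 0.0606). KRT18 stayed at or near 0, as given above.

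Other adherens junction genes were called in both directions. Of 26 in the table, 19 were tested, and in Ep2 against Ep1 3 rose and 5 fell, with a median log2 difference of -0.04, beside 27.4% of all tested genes called. PVRL3, which encodes nectin-3, rose to 12.1 ± 1.08 FPKM in Ep2, against 9.02 ± 1.003 FPKM in Ep1. PVRL2, which encodes nectin-2, fell to 13.3 ± 0.814 FPKM in Ep2, against 17.0 ± 2.07 FPKM in Ep1. Nectins are immunoglobulin-like adhesion molecules that form contacts beside the cadherins. AJUBA, a LIM protein recruited to α-catenin, fell to 70.4 ± 1.71 FPKM in Ep2, against 87.4 ± 7.74 FPKM in Ep1 (log2 difference -0.31, adjusted p = 0.00869). The nectin calls were lost without Ep2_2 (adjusted p = 0.0514 for PVRL3 and 0.0664 for PVRL2) or Ep2_3 (0.0590 and 0.0705). Without these libraries the list had 3 and 2 calls, all lower, where 12.7% and 10.6% of all genes were called. In PBS against Ep2, 5 rose and 5 fell, beside 49.6% of all genes called. PVRL2 was higher in PBS, at 19.2 ± 0.801 FPKM against 13.3 ± 0.814 FPKM in Ep2, and PVRL3 lower, at 8.91 ± 0.419 FPKM against 12.1 ± 1.08 FPKM, beside the fall of CDH2 given above. These 3 calls held with any 1 library left out.

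Of 50 other tight junction genes in the table, 25 were tested. In Ep2 against Ep1, 1 rose and 5 fell, with a median of -0.05 and 27.4% of all genes called. The gene that rose was CLDN1, with 25.6 ± 1.30 FPKM in Ep2 and 21.8 ± 1.009 FPKM in Ep1 (adjusted p = 0.0298), a call lost without Ep1_1 (0.0630), Ep1_3 (0.0713), Ep2_2 (0.0851) or Ep2_3 (0.115). CGNL1, which encodes paracingulin, fell to 29.9 ± 0.874 FPKM in Ep2, against 38.3 ± 3.26 FPKM in Ep1. MPDZ, a scaffold with many PDZ domains, fell to 8.47 ± 0.987 FPKM in Ep2, with 11.1 ± 0.270 FPKM in Ep1, and AMOTL1, an angiomotin-like protein, to 5.41 ± 0.350 FPKM in Ep2, with 7.10 ± 0.337 FPKM in Ep1. The falls of these scaffold genes stood beside a TJP1 value that was higher in Ep2 without passing. The MPDZ call was lost without Ep2_3 (adjusted p = 0.0686). The list's 6 calls became 3 without Ep1_1, 3 without Ep2_2 and 2 without Ep2_3, all lower. Of all genes, 15.4%, 12.7% and 10.6% were called in those fits. In PBS against Ep2, 9 rose and 4 fell, with a median of 0.14, a share close to the 49.6% of all genes called. Without Ep2_3, 8 were called, beside 39% of all genes. CGN, which encodes the ZO-1 partner cingulin, was higher in PBS, at 14.7 ± 0.572 FPKM against 9.01 ± 0.523 FPKM in Ep2 (log2 difference 0.65, SE 0.10, adjusted p = 0.000684). AMOTL1 was higher too, at 7.64 ± 0.297 FPKM in PBS against 5.41 ± 0.350 FPKM in Ep2, and PARD6B, of the PAR polarity complex, lower, at 6.73 ± 0.319 FPKM in PBS against 9.34 ± 0.531 FPKM in Ep2.

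Desmosomal genes other than DSP were few: 5 of 13 were tested. DSG2 was the only tested desmosomal cadherin, at 1.91 to 3.34 FPKM, and held 83.4% to 95.8% of that family's FPKM. The plaque gene PKP2 measured 14.2 to 18.5 FPKM, so that PKP2 stood far above DSP, whose product links the plaque to keratin. In Ep2 against Ep1, JUP fell and 0 rose, beside 27.4% of all genes called. In PBS against Ep2, 2 rose and 0 fell, beside 49.6% of all genes called. These were the plakin genes EVPL (13.2 ± 1.09 FPKM in PBS, 9.25 ± 0.936 FPKM in Ep2) and PPL (5.74 ± 0.927 FPKM in PBS, 3.86 ± 0.288 FPKM in Ep2). Envoplakin and periplakin are relatives of desmoplakin. The Ep2 minus Ep1 count of 1 was 2 without Ep1_3 (28.2% of all genes called) and 0 without Ep2_3 (10.6%).

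Over all junction lists together, the 9 genes included, 98 genes were in the table and 55 were tested. In Ep2 against Ep1, 5 rose and 11 fell, 29.1% against 27.4% of all genes. The count of 16 became 7 without Ep2_2 and 4 without Ep2_3, all lower in Ep2. In those fits the share of all genes called fell too, to 12.7% and 10.6%. In PBS against Ep2, 16 rose and 10 fell, 47.3% against 49.6% of all genes. In PBS against Ep1, limma called 0 of the 55 (0.144% of all genes), with 14 at an unadjusted p under 0.05 (22.4% of all genes) and 5 called by voom (4.49%). Without Ep1_1 it called 9, 4 higher and 5 lower in PBS, where 15.8% of all genes were called. Among the other junction genes, ZYX (zyxin), at 141 ± 5.15 FPKM in PBS and 147 ± 8.72 FPKM in Ep1, and YBX3, a ZO-1 partner, at 283 ± 9.45 FPKM in PBS and 264 ± 14.3 FPKM in Ep1, were the most abundant of their adherens and tight junction lists and were not called. The connexin gene GJA1, of gap junctions, rose to 51.9 ± 1.07 FPKM in Ep2, against 44.9 ± 2.97 FPKM in Ep1 (adjusted p = 0.0372), a call lost without Ep1_1 (0.104), Ep1_2 (0.0549), Ep2_2 (0.111), Ep2_3 (0.104) or column PBS2 (0.0538). It was also lost with no filter (0.0563), quantile normalization (0.0526), no intensity trend (0.0577) or only the 6 libraries of the pair (0.0592). In PBS it measured 45.1 ± 2.69 FPKM, lower than in Ep2 (adjusted p = 0.0259), a call lost without Ep2_2 (0.0790), Ep2_3 (0.0685), column PBS1 (0.0903) or column PBS2 (0.0930).

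**Figure D5:**
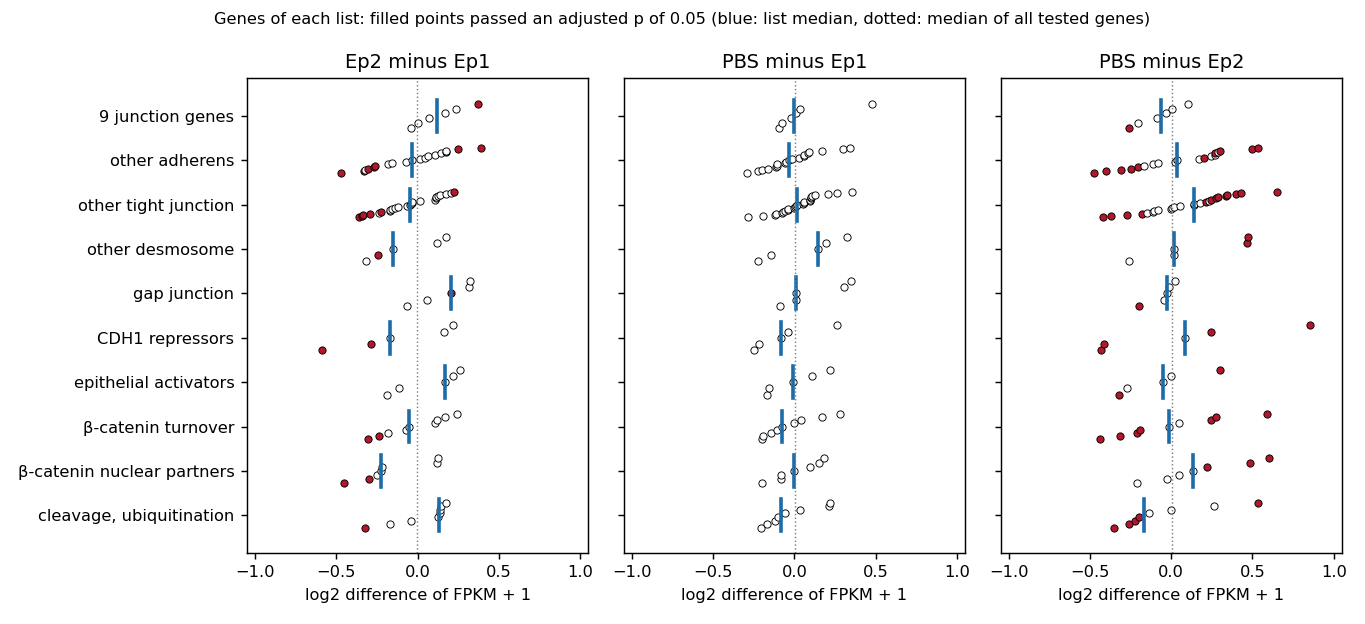
Log2 difference of FPKM + 1 for each tested gene of the junction and regulator lists, 1 row per list and 1 panel per comparison, with filled points for an adjusted p under 0.05, blue bars for list medians and a dotted line for the median of all tested genes. The top row holds the 6 tested of the 9 junction genes, and no list had a filled point for PBS minus Ep1.

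Of 9 listed repressors of CDH1, 5 were expressed highly enough to be tested and 4 were not. In Ep2 against Ep1 0 of the 5 rose and 2 fell, where 27.4% of all tested genes were called and 14.0% fell. TCF3, which encodes the E-box factor E2A, was lower in Ep2, at 9.39 ± 0.9503 FPKM, than in Ep1, at 14.7 ± 1.44 FPKM (log2 difference -0.59, SE 0.09, adjusted p = 0.00442), and 17.7 ± 1.0497 FPKM in PBS, higher than in Ep2 by 0.85 (SE 0.09, adjusted p = 0.000298). In PBS against Ep2, 2 of the 5 tested repressors rose and 2 fell, beside 49.6% of all genes called. ZEB1, a zinc finger repressor of E-cadherin, was lower in PBS, at 8.09 ± 0.648 FPKM against 11.3 ± 0.344 FPKM in Ep2 (adjusted p = 0.00248). TWIST1, another repressor of E-cadherin, measured 31.7 ± 2.46 FPKM in Ep1, 25.8 ± 0.955 FPKM in Ep2 and 30.7 ± 2.07 FPKM in PBS. Its Ep2 minus Ep1 call (adjusted p = 0.0178) was lost without Ep1_1 (0.0558), Ep2_2 (0.0681) or Ep2_3 (0.0538) and with voom (0.0506). Its PBS minus Ep2 call (0.0180) was lost without Ep2_2 (0.0671) or column PBS2 (0.0790), with voom (0.0724) and with removal of the gene length trend (0.0662). The list's 2 calls for Ep2 minus Ep1 became 1 without any of Ep1_1, Ep2_2 and Ep2_3. Of all genes, 15.4%, 12.7% and 10.6% were called in those fits. Of 11 listed activators of epithelial genes, 5 were tested, and KLF5 was the most abundant, at 34.3 ± 2.36 FPKM in Ep1, 38.5 ± 0.868 FPKM in Ep2 and 30.7 ± 0.758 FPKM in PBS. KLF5 fell in PBS against Ep2 by 0.32 (adjusted p = 0.00198). It was not called for Ep2 minus Ep1 (0.0646, and 0.0377 without Ep1_3) or PBS minus Ep1 (0.172, and 0.0298 without Ep1_1). Of the 5 tested activators, 1 rose and 1 fell in PBS against Ep2, beside 49.6% of all genes called.

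Genes that degrade β-catenin or act with it in the nucleus were called about as often as all genes between Ep2 and Ep1. Of 9 tested turnover genes, 0 rose and 2 fell in Ep2, and of 7 tested nuclear partners 0 rose and 2 fell, beside 27.4% of all genes called. ZNRF3, a ligase that removes Wnt receptors, fell to 5.67 ± 0.395 FPKM in Ep2, with 7.26 ± 0.272 FPKM in Ep1 (adjusted p = 0.0124, or 0.0511 without Ep2_2), and the kinase gene GSK3A to 66.5 ± 2.38 FPKM in Ep2, with 78.5 ± 3.92 FPKM in Ep1 (0.0135, or 0.0629 without Ep2_3). The count of 2 became 1 without Ep2_2 or Ep2_3 (12.7% and 10.6% of all genes called) and 4 without Ep1_3 (28.2%). In PBS against Ep2, where 49.6% of all genes were called, 3 turnover genes rose and 4 fell: ZNRF3 was higher, at 9.01 ± 0.249 FPKM in PBS, while the scaffold gene APC was lower, at 6.90 ± 0.195 FPKM against 9.76 ± 0.954 FPKM in Ep2, as was GSK3B, at 26.4 ± 0.821 FPKM against 33.1 ± 0.332 FPKM. Among the nuclear partners, BCL9L, a coactivator that binds β-catenin, fell to 14.6 ± 0.450 FPKM in Ep2, with 20.3 ± 1.19 FPKM in Ep1, and PYGO2, which binds the BCL9 proteins, to 13.2 ± 0.407 FPKM in Ep2, with 16.5 ± 1.17 FPKM in Ep1. Both were higher in PBS than in Ep2, at 22.6 ± 0.332 FPKM and 18.8 ± 0.688 FPKM. These calls of BCL9L and PYGO2 held with any 1 library left out. Of the 7 tested nuclear partners, 3 rose and 0 fell in PBS against Ep2, beside 49.6% of all genes called.

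Of 8 genes for the cleavage and ubiquitination of cadherins, APH1A, a γ-secretase subunit, fell to 55.0 ± 2.75 FPKM in Ep2, against 69.1 ± 6.56 FPKM in Ep1 (adjusted p = 0.0111, or 0.0507 without Ep2_3), and was higher in PBS, at 79.9 ± 3.19 FPKM, than in Ep2. CBLL1, which encodes the E-cadherin ligase Hakai, was lower in PBS, at 12.0 ± 0.422 FPKM against 15.5 ± 0.317 FPKM in Ep2 (adjusted p = 0.00187). The list's 1 call for Ep2 minus Ep1 stood beside 27.4% of all genes called. The count was 2 without Ep2_2 and 0 without Ep2_3, where 12.7% and 10.6% of all genes were called. In PBS against Ep2, 1 of the 8 rose and 4 fell, beside 49.6% of all genes called. Over the 34 tested genes of the 5 regulator lists, limma called 7 for Ep2 minus Ep1, 0 higher and 7 lower in Ep2 (27.4% of all genes). This count became 6 without Ep2_2 (12.7%) and 4 without Ep2_3 (10.6%). For PBS minus Ep2 it called 21, 10 higher and 11 lower in PBS (49.6%), and 15 without column PBS2 (38%). For PBS minus Ep1 it called 0 (0.144%). In that comparison 10 had an unadjusted p under 0.05 (22.4%), voom called 0 (4.49%), and limma called 10 without Ep1_1 (15.8%). The kinase gene CSNK1A1, at 86.0 ± 1.98 FPKM in PBS and 92.5 ± 2.26 FPKM in Ep1, and the γ-secretase subunit gene PSENEN, at 72.3 ± 3.63 FPKM in PBS and 75.4 ± 4.36 FPKM in Ep1, were the most abundant of their lists and were not called.

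Among 7701 genes with a mean of at least 5 FPKM, those whose centred log2 profile over the 9 libraries lay closest to OCLN were ZCCHC9, TTC27 and CCNC, at root mean square distances of 0.0409, 0.0434 and 0.0465, against a spread of 0.13 for OCLN around its own mean. CCNC averaged 36.7 FPKM in Ep1, 44.9 FPKM in Ep2 and 37.7 FPKM in PBS. The profiles of CDH1 and DSP rest on few fragments and are nearly flat on this scale, so that their closest genes (PRKAR1A, PNRC2 and CAP1 for CDH1, and CIAO1, HINFP and BCOR for DSP) were other flat profiles.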

How the data were processed

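The authors deposited 1 table of FPKM for 9 libraries, per the file headers. Bowtie 0.12.2 and the mouse build mm8 are named, per the submitters' processing notes, but the scaffolds in the table are those of the ferret, so no coordinates are given. How fragments were counted, with which annotation and strand setting, is not stated in the sources used here, so genes with near-identical copies or overlapping neighbours are uncertain. Fragments were recovered from FPKM times gene length, with 100% of values whole within 0.02, giving 12469849 to 13533480 fragments per library.

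Values were tested as log2(FPKM + 1) with limma 3.58.1 (R 4.3.3), using its intensity trend, 1 fit over all 9 libraries and no covariates. A gene entered the test, as 11840 did, if 3 libraries or more had 1 FPKM or more, with Benjamini-Hochberg adjustment over all of them and a threshold of 0.05. The added 1 makes log2 differences of low genes too small, and errors are SD with n = 3 unless named otherwise. The script was tested on simulated data. Replicates of a group differed by more than sampling noise (chi-square per degree of freedom 2.73 to 10.9).

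The junction genes and all lists were chosen with earlier results of these data known. Named from each list were up to 3 called genes per comparison with the largest differences and a mean of at least 5 FPKM in a group, or the most abundant tested gene where none was called; CLDN1, PKP2, relatives that share a gene family with the junction genes, TEK and the keratin genes are named beyond this rule, after their values were seen. Some genes that the rule names are not reported here. The alternatives were pseudocounts of 0.1 and 5, no filter, a filter at 5 FPKM, sample weights, quantile normalization, no trend, equal library medians, voom on the fragments, removal of the gene length trend (lowess span 0.3), only the 6 libraries of a pair, a replicate block and each library left out. Symbols were taken from the gene identifiers. Of these, 22335 also stood in a reference gene table, from a different assembly, that served only to check names. That reference held 8 of the 9 junction gene symbols.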

Additional observations from a re-analysis of the deposited data

How the results depend on the processing

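The number of the 6 tested junction genes called moved with the fit. For Ep2 minus Ep1 it was 1 with all libraries, 0 with no filter, 2 with a filter at 5 FPKM, quantile normalization, equal library medians, sample weights or removal of the gene length trend, 3 with voom, and 0 to 1 with a library left out. The share of all genes called moved too, from 27.4% to 11.5% with no filter, 36.2% at 5 FPKM and 37.9% with sample weights. It was 31% with voom, 28.7% after removal of the length trend, 27.1% with quantile normalization and 27.3% with equal medians. For PBS minus Ep1 the number of junction genes called was 0, with 2 under sample weights, 1 with voom, and 0 to 1 with a library left out. For PBS minus Ep2 it was 1, with 2 under quantile normalization, sample weights, voom or only the 6 libraries of the pair, and 1 to 2 with a library left out. The F-test called 2, and 1 to 3 with a library left out. Over all genes, PBS minus Ep1 gave 17 calls, but 0 with no filter, 79 at 5 FPKM, 11 with no intensity trend, 3593 with sample weights, 532 with voom, 44 after removal of the length trend, and 0 to 1875 with a library left out; Ep2 minus Ep1 gave 1256 to 3421 and PBS minus Ep2 4495 to 6246 with a library left out, against 3240 and 5875. Sample weights and voom gave F11R as a PBS minus Ep1 call (adjusted p = 0.00156 and 0.0159). The TJP1 call for PBS minus Ep2 held in every alternative run. Differences near 0 changed sign without being called. CTNNB1 for Ep2 minus Ep1 was 0.0018 with equal medians, 0.0013 with sample weights and -0.0123 to 0.0124 with a library left out. For PBS minus Ep1, CTNNB1 was -0.0733 with quantile normalization, -0.0048 with sample weights and -0.0163 to 0.0219 with a library left out, OCLN -0.0553 with sample weights and -0.0140 to 0.0988 with a library left out, and CTNNA1 -0.0370 to 0.0032. GJA1 was -0.0243 with quantile normalization, -0.0464 with sample weights, -0.0029 with the length trend removed and -0.0463 to 0.0402 with a library left out, and TWIST1 -0.102 to 0.0081. For PBS minus Ep2, CTNNB1 was -0.0658 with quantile normalization, -0.0061 with sample weights and -0.0162 to 0.0220 with a library left out, and CTNND1 was 0.0121 with the length trend removed. The cause was not tested. Of 366 junction gene values recomputed, 327 kept direction and side of the threshold. Ep1 and Ep2 libraries of equal replicate number had correlations of deviations of 0.152, 0.0720 and 0.0647, and those of unequal number -0.127 to 0.0733. Ep1_1 and Ep1_3 were closest to the Ep2 library of the same number, and Ep1_2 to Ep2_3. Values this small do not settle whether the numbers pair the libraries. The replicate block called 2917 genes against 3240 and 1 junction gene, F11R. No paired analysis was possible for PBS because its columns carry no title numbers. Few fragments, 1 to 45 per library, limit the comparisons of CDH1 and DSP.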
